A study of Mus musculus with 6 samples.

Results

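The 78 genes described here bear the names of mitochondrial ribosomal proteins. They were chosen by name, as the genes of the deposited table whose symbol is Mrpl or Mrps followed by a number, with pseudogenes left out, and they are 78 of 16108 genes. There are 49 Mrpl genes, named for the large subunit, and 29 Mrps genes, named for the small subunit. RNA was sequenced from RAW264.7 cells, a mouse macrophage-like line, that had been cultured on acoustic devices. In the acoustics-off group the cells stayed on the device for 48 h with the device undriven, and in the acoustics-on group the device ran for 48 h at 5 kHz and 18 V (peak to peak). Each group had 3 libraries, called off 1 to off 3 and on 1 to on 3, and both groups were the same unmodified line on the same kind of device. A petri-dish group named in the design text was not analysed here. A single cell line limits the comparison to these cells. Nothing in the labels ties the libraries to separate cultures or days, so p-values measure the spread among these 6 samples only, and that spread could be technical.

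Mitochondria keep ribosomes of their own, which translate the few proteins encoded in mitochondrial DNA, all of them core subunits of the respiratory chain and ATP synthase. The proteins of these ribosomes are encoded in the nucleus, made on cytosolic ribosomes and imported, so the particle draws on genes scattered over the genome. Some of these proteins have counterparts in bacterial ribosomes and others were gained in the mitochondrial lineage. Some names mislead about place: the proteins of Mrps30 and Mrps18a sit in the large subunit and the protein of Mrps36 is a component of the 2-oxoglutarate dehydrogenase complex rather than of the ribosome.

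The deposited values were FPKM, read counts scaled by the length that the authors used for a gene and by the reads of the library. Of the 78 members, 77 passed the filter on low values (at least 0.5 FPKM in at least 3 libraries) among 11664 genes tested. The read depth of each library is unknown. In the authors' deposited table the mean normalised count of the 77 members ran from 370.0 to 5718, with a median of 1601, so counting error was small, with a coefficient of variation of 5.2% at the lowest of these means. FPKM summed to between 821818 and 840707 in the acoustics-off libraries, to 1000722 in on 1, 824063 in on 2 and 716509 in on 3. All 7 macrophage markers looked for were present, with summed FPKM of 27160 to 29330 in the acoustics-off and 18795 to 26021 in the acoustics-on libraries. Most of this sum was Lyz2, at 23951 to 26096 FPKM with acoustics off and 16356 to 23205 FPKM with acoustics on. Csf1r, the receptor of a macrophage growth factor, was at 758.5 to 847.9 FPKM in the acoustics-off and 352.0 to 570.4 FPKM in the acoustics-on libraries, and the integrin gene Itgam at 140.3 to 169.9 and 60.0 to 114.6 FPKM. Spi1 was at 246.7 to 262.4 FPKM with acoustics off and at 229.4 to 319.8 FPKM with acoustics on. The part of these marker levels in the members' differences was not tested. The 7 of 13 markers of other cell types found in the table summed to 1.72 to 4.02 FPKM. In such bulk samples fewer cells of a type and less RNA per cell cannot be told apart.

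Library on 1 stood apart from the other libraries by gene length. As a measure of length, the mean normalised count of each gene in the authors' deposited table was divided by its mean FPKM, which gives reads per FPKM and grows with the length the authors used; it is computed from the same 6 libraries. When 10462 tested protein-coding genes were put into 5 equal groups by this measure, the median log2(FPKM + 1) in on 1 lay 0.58 above the acoustics-off mean in the group with the fewest reads per FPKM and -0.60 from it in the group with the most. In on 2 these medians were 0.20 and -0.21, and in on 3 they were -0.02 and 0.01. The mitochondrial ribosomal protein genes lie at the short end of this measure, with a median of 39.8 reads per FPKM against 99.5 for tested protein-coding genes, and 55 of the 77 were in the group with the fewest. The main counts and medians are therefore given library by library, with and without on 1, and with the trend divided out, and the differences of most members described are also given without on 1.

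The comparison asks how 48 h on a driven device is reflected in the transcripts of the mitochondrial ribosome. Differences are on the log2(FPKM + 1) scale, on which those of low genes come out too small. By this measure 70 of the 77 tested members had a higher mean with acoustics on and 7 a lower one, and the median difference was 0.35 against -0.03 over all genes tested. Of all 11664 genes tested, 5477 had a higher mean with acoustics on. None passed an adjusted p under 0.05 in limma (Benjamini-Hochberg over all genes tested): 0 members were higher, against 1.5% of all genes, and 0 were lower, against 0.574%. At an unadjusted p under 0.05 there were 15 higher members (10.5% of all genes) and 0 lower members (9.16% of all genes). The authors' deposited table has 2 members higher at an adjusted p under 0.05 (5.08% of its genes), Mrpl53 and Mrps10, and 0 lower (2.49% of its genes); DESeq2 is among the tools in the submitters' processing notes. Without on 1, the median difference of the members was 0.14, 3 members rose in limma (4.34% of all genes), namely Mrpl53, Mrps10 and Mrps22, and 0 fell (3.11% of all genes). With library weights, 15 members rose (9.41% of all genes) and 0 fell (6.72% of all genes).

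The 3 acoustics-on libraries differed among themselves for these genes more than the acoustics-off libraries did. The median member lay -0.04, 0.06 and -0.02 from the acoustics-off mean in off 1, off 2 and off 3, and 0.76, 0.23 and 0.04 from it in on 1, on 2 and on 3, while the medians of all genes tested in on 1, on 2 and on 3 were -0.04, 0.00 and -0.01. In on 1, 74 of 77 members were above all 3 acoustics-off libraries (43.1% of all genes). The count was 61 in on 2 (38.4% of all genes) and 30 in on 3 (37.1% of all genes). Members below all 3 acoustics-off libraries numbered 2 in on 1 (46.8% of all genes), 5 in on 2 (39.1%) and 26 in on 3 (38.8%). Library on 1 held nearly all members high, on 2 most of them, and on 3 split them.

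For 71 members the highest of the 6 libraries was on 1, against 34.7% of all genes, and for 68 members on 3 was the lowest of the 3 acoustics-on libraries. Differences from the acoustics-off mean ranged from -0.17 (Mrpl9) to 1.41 (Mrps28) in on 1, from -0.19 (Mrpl30) to 0.82 (Mrpl53) in on 2 and from -0.59 (Mrpl23) to 0.56 (Mrpl53) in on 3. The median coefficient of variation of a member was 5.05% in the acoustics-off group and 27.6% in the acoustics-on group. The acoustics-on and acoustics-off values did not overlap for 29 members that were higher (17.1% of all genes) and for 1 that was lower (17.7% of all genes), and they overlapped for the other 47.

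**Figure D1:**
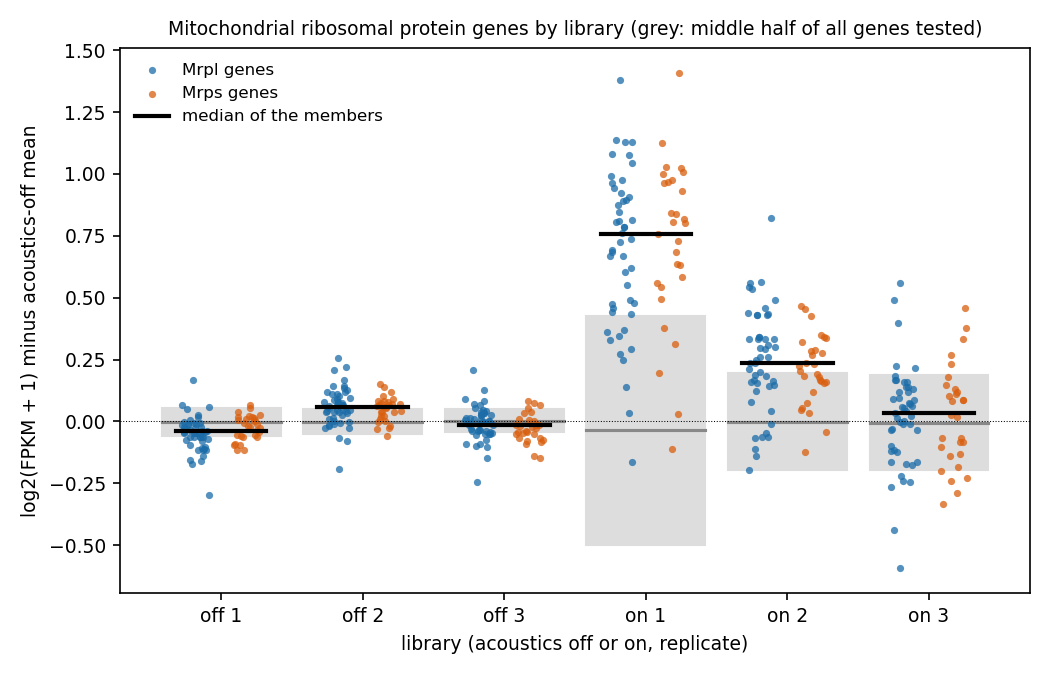
Each point is 1 tested mitochondrial ribosomal protein gene in 1 library, as its log2(FPKM + 1) minus the acoustics-off mean; black bars are medians of the 77 genes and grey boxes hold the middle 50% of the 11664 genes tested, with their median in grey. The members' medians are 0.76 in on 1, 0.23 in on 2 and 0.04 in on 3, and within 0.06 of 0 in the acoustics-off libraries.

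Mrpl53 (chromosome 6, 83109040 to 83109939, plus strand, GRCm38), a mitochondria-specific protein of the large subunit, had the smallest p of all members. It was at 44.0, 55.5 and 49.1 FPKM in off 1 to off 3 and at 129.9, 88.0 and 73.1 FPKM in on 1 to on 3. All 3 acoustics-on values were above all acoustics-off values, with on 1 the highest. Its log2 difference was 0.92 (SE 0.22, adjusted p = 0.098 in limma), and in the authors' deposited table its log2 fold change was 0.97 (SE 0.26, adjusted p = 0.0051). Without on 1 the difference was 0.69 (adjusted p = 0.029), which passed the threshold. Exons of Mrpl53 overlap Gm42688 on the same strand (0.63 to 1.18 FPKM) and Ccdc142os on the opposite strand (0.45 to 1.47 FPKM), both at levels far under that of Mrpl53.

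Mrps10 (chromosome 17, 47368887 to 47381417, plus strand), a small-subunit protein with a bacterial counterpart, was at 36.2, 39.9 and 37.4 FPKM in off 1 to off 3 and at 77.0, 51.1 and 52.3 FPKM in on 1 to on 3. The groups did not overlap, and on 2 and on 3 were close to each other. The log2 difference was 0.63 (SE 0.18, adjusted p = 0.137), and it was 0.44 (adjusted p = 0.026) without on 1. In the authors' deposited table its log2 fold change was 0.67 (adjusted p = 0.035). Mrps22 (chromosome 9, 98588730 to 98601660, minus strand), a mitochondria-specific protein of the small subunit that is mutated in a human defect of oxidative phosphorylation, was at 13.3, 12.9 and 13.2 FPKM in off 1 to off 3 and at 22.5, 16.9 and 17.4 FPKM in on 1 to on 3. The groups again did not overlap. The difference was 0.48 on the log2 scale (SE 0.14, adjusted p = 0.150), and 0.36 (adjusted p = 0.043) without on 1. With the trend with reads per FPKM and GC content divided out of all 6 libraries, neither gene passed in limma. The differences were then 0.38 (adjusted p = 0.064) for Mrps10 and 0.29 (adjusted p = 0.122) for Mrps22.

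Mrpl22, whose bacterial counterpart lines the exit tunnel for the growing chain, was at 27.4, 34.4 and 27.6 FPKM in off 1 to off 3 and at 54.1, 40.3 and 39.4 FPKM in on 1 to on 3. The lowest acoustics-on value exceeded the highest acoustics-off value. This gave a log2 difference of 0.56 (SE 0.17, adjusted p = 0.155), and 0.41 without on 1. Mrps27, a mitochondria-specific RNA-binding protein of the small subunit, averaged 12.5 ± 0.81 and 17.2 ± 2.96 FPKM (SD, n = 3) and differed on the log2 scale by 0.43 (adjusted p = 0.202), and by 0.30 without on 1. Mrpl1, which forms a mobile stalk of the large subunit, was at 11.1, 11.6 and 11.8 FPKM in off 1 to off 3 and at 15.8, 17.2 and 13.0 FPKM in on 1 to on 3. It is 1 of 2 members for which on 2 was the highest library. Its difference was 0.38 on the log2 scale (adjusted p = 0.207), and 0.36 without on 1.

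The stretches before the RefSeq start sites of Mrpl53, Mrps22 and Mrpl22 are shown as examples from the members with the smallest p. Each of these stretches holds a match to a motif of a factor known for nuclear genes of mitochondrial proteins. No match was recorded for Mrps10, whose p was smaller than those of Mrps22 and Mrpl22, or for Mrpl1. Neither is shown, nor is Mrps27, which had matches, so the stretches do not stand for all members with a small p. The motifs searched on both strands of RefSeq windows (GRCm38.p6, 250 bases before to 50 bases after the start) were GCGCATGCG for NRF1, its form GCGCANGCG with 1 free base, CCGGAAG for ETS factors such as GABPA, and AAGATGGCG for YY1. Every GCGCATGCG is also a GCGCANGCG. The sequences run 5′ to 3′ on the strand of the gene, with motif matches in capitals and without bases that an annotated exon covers, except for Mrpl53, where 30 bases around the match are shown.
Mrpl53, chr6:83109038-83109067, plus strand: ccgcggagccgCCGGAAGcggtccgttcca
Mrps22, chr9:98601680-98601779, minus strand: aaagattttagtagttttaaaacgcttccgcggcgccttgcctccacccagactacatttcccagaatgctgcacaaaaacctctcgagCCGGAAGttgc
Mrpl22, chr11:58171564-58171660, plus strand: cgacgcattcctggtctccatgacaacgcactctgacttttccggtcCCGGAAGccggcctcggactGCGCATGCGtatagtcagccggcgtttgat
The CCGGAAG match began at position -59 from the RefSeq start in Mrpl53, -11 in Mrps22 and -53 in Mrpl22, and the GCGCATGCG of Mrpl22 began at -33. In the GENCODE annotation Mrpl53 starts at 83109040, before its RefSeq start. Nearly all bases shown for Mrpl53, the match included, therefore lie inside the annotated gene.

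RefSeq windows were found for 69 members and for 8768 genes tested. CCGGAAG was in 26 of the 69 (37.7%, against 22.2% of the 8768), GCGCANGCG in 16 (23.2%, against 16.6%), GCGCATGCG in 7 (10.1%, against 4.54%) and AAGATGGCG in 8 (11.6%, against 4.0%). At least 1 of the motifs was in 42 members (60.9%, against 37.2%). The members with and without a motif differed little in their medians. The median log2 difference was 0.36 with CCGGAAG and 0.32 without it, and 0.34 with GCGCANGCG and 0.33 without it. It was 0.36 with GCGCATGCG and 0.32 without it, and 0.37 with AAGATGGCG and 0.32 without it. These letter matches are a description, not binding sites.

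**Figure D2:**
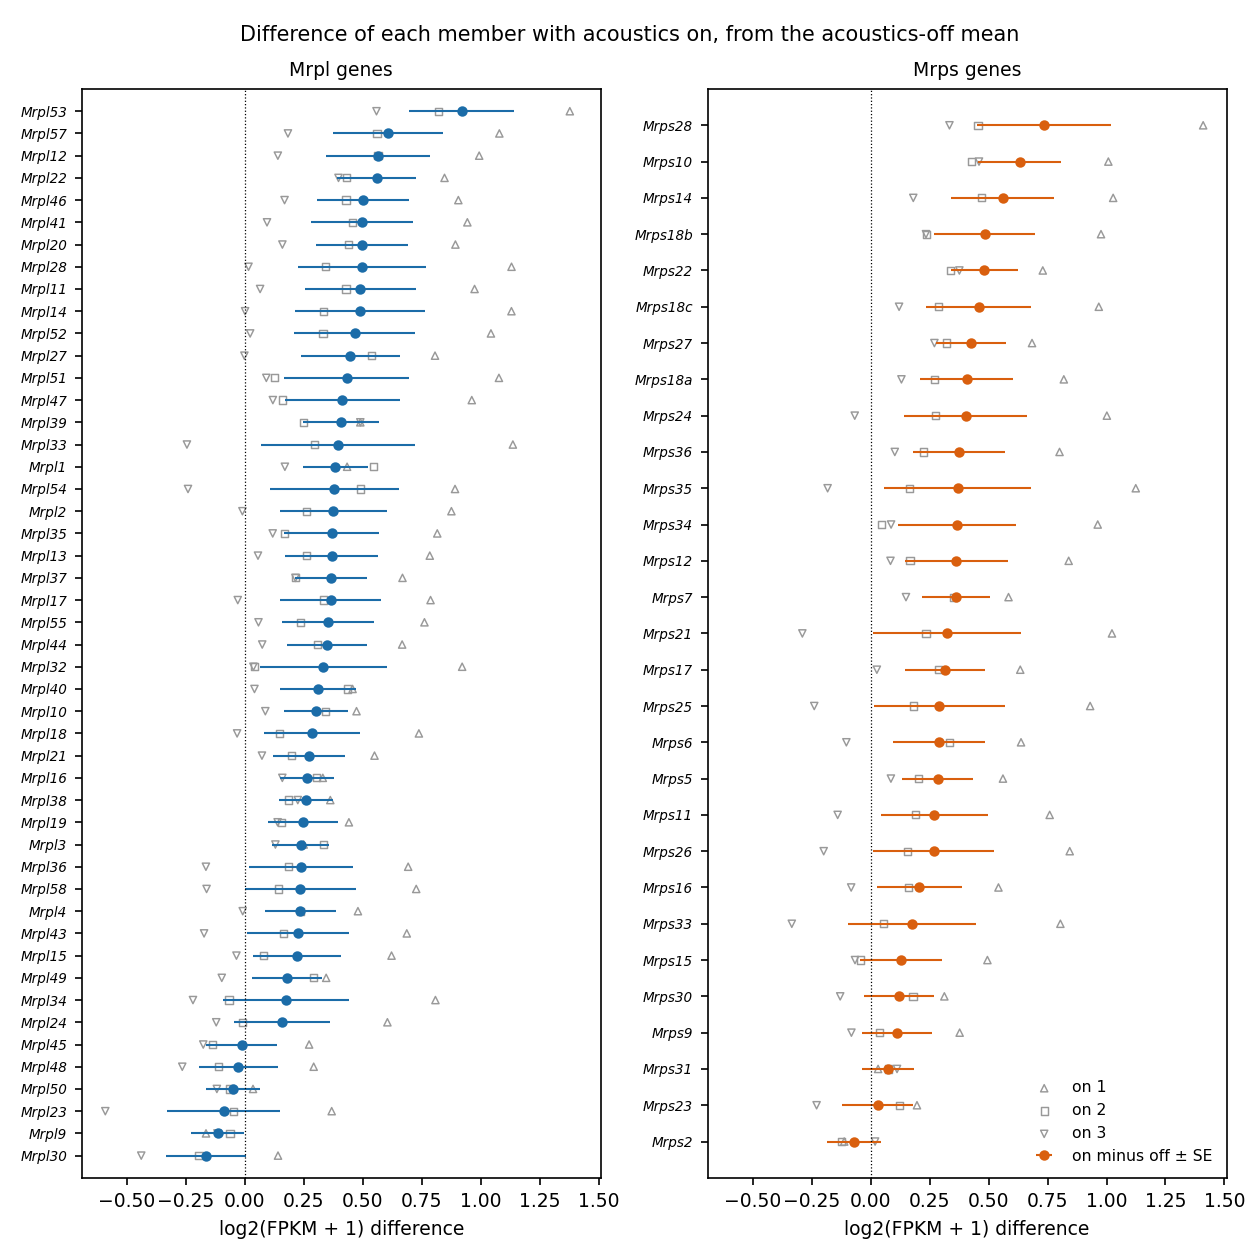
Filled points with bars are the limma difference in log2(FPKM + 1), on minus off, ± SE for each tested member (n = 3 per group), and open symbols are the 3 acoustics-on libraries, each minus the acoustics-off mean. Of the 77 genes, 70 lie above 0, and the triangles of on 1 lie to the right of the other libraries for 72.

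The larger differences beyond these genes came with a wide spread. Mrps28, the counterpart of bacterial ribosomal protein S1, was at 13.7, 15.4 and 12.4 FPKM in off 1 to off 3 and at 38.3, 19.3 and 17.6 FPKM in on 1 to on 3. The groups did not overlap, but on 1 was far above on 2 and on 3. Its log2 difference was 0.73 with an SE of 0.28 (adjusted p = 0.227), and it was 0.39 without on 1. Mrpl57, mitochondria-specific and of the large subunit, was at 7.03, 8.76 and 7.84 FPKM in off 1 to off 3 and at 17.7, 12.1 and 9.04 FPKM in on 1 to on 3, which gave a log2 difference of 0.61 (adjusted p = 0.224), and 0.37 without on 1. Mrps14, of the small subunit, averaged 47.8 ± 3.35 and 73.0 ± 22.8 FPKM (SD, n = 3) and differed on the log2 scale by 0.56 (adjusted p = 0.230), and by 0.32 without on 1.

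Proteins that form the factor-binding stalk of the large subunit showed the same order of libraries. Mrpl12, the stalk protein that contacts translation factors, was at 69.7, 82.1 and 75.2 FPKM in off 1 to off 3 and at 151.3, 112.2 and 83.3 FPKM in on 1 to on 3. Library on 3 was just above the highest acoustics-off value. This was a log2 difference of 0.57 (SE 0.22, adjusted p = 0.228), and 0.35 without on 1. Mrpl11, at the base of the stalk, was the lowest of the tested members by its acoustics-off mean, at 3.87, 4.73 and 4.20 FPKM in off 1 to off 3 and at 9.32, 6.07 and 4.49 FPKM in on 1 to on 3. Library on 3 lay within the acoustics-off range, and the log2 difference was 0.49 (adjusted p = 0.293), and 0.25 without on 1.

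Mrpl58, which frees stalled chains from the ribosome, was at 37.7, 47.8 and 38.0 FPKM in off 1 to off 3 and at 68.4, 45.2 and 36.4 FPKM in on 1 to on 3. Only on 1 was above the acoustics-off range, on 3 was below it, and the log2 difference of 0.24 (adjusted p = 0.565) was -0.01 without on 1. Mrps12, a protein of the decoding centre, averaged 19.5 ± 2.02 and 26.0 ± 8.25 FPKM (SD, n = 3) and differed on the log2 scale by 0.36 (adjusted p = 0.365), and by 0.12 without on 1. The 3 genes related to bacterial S18 are divided between the subunits, with the protein of Mrps18a in the large one. Mrps18a averaged 79.0 ± 6.20 and 107.1 ± 28.6 FPKM with a log2 difference of 0.41, Mrps18b averaged 26.1 ± 1.04 and 38.1 ± 12.4 FPKM with 0.48, and Mrps18c averaged 54.9 ± 2.43 and 78.3 ± 26.1 FPKM with 0.46. None of the 3 passed (adjusted p = 0.296, 0.267 and 0.296), their groups did not overlap, and on 1 was the highest library in each. Without on 1 their differences were 0.20, 0.24 and 0.20.

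The members whose names mislead gave values within the range of the others. Mrps30, of the large subunit, averaged 12.7 ± 0.62 and 14.0 ± 2.28 FPKM (SD, n = 3), its groups overlapped, and it differed on the log2 scale by 0.12 (adjusted p = 0.637), and by 0.024 without on 1. Mrps36, of the 2-oxoglutarate dehydrogenase complex, was at 68.6, 68.7 and 67.5 FPKM in off 1 to off 3 and at 119.6, 79.8 and 73.3 FPKM in on 1 to on 3. Its groups did not overlap, and the log2 difference was 0.38 (adjusted p = 0.316), and 0.16 without on 1.

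**Figure D3:**
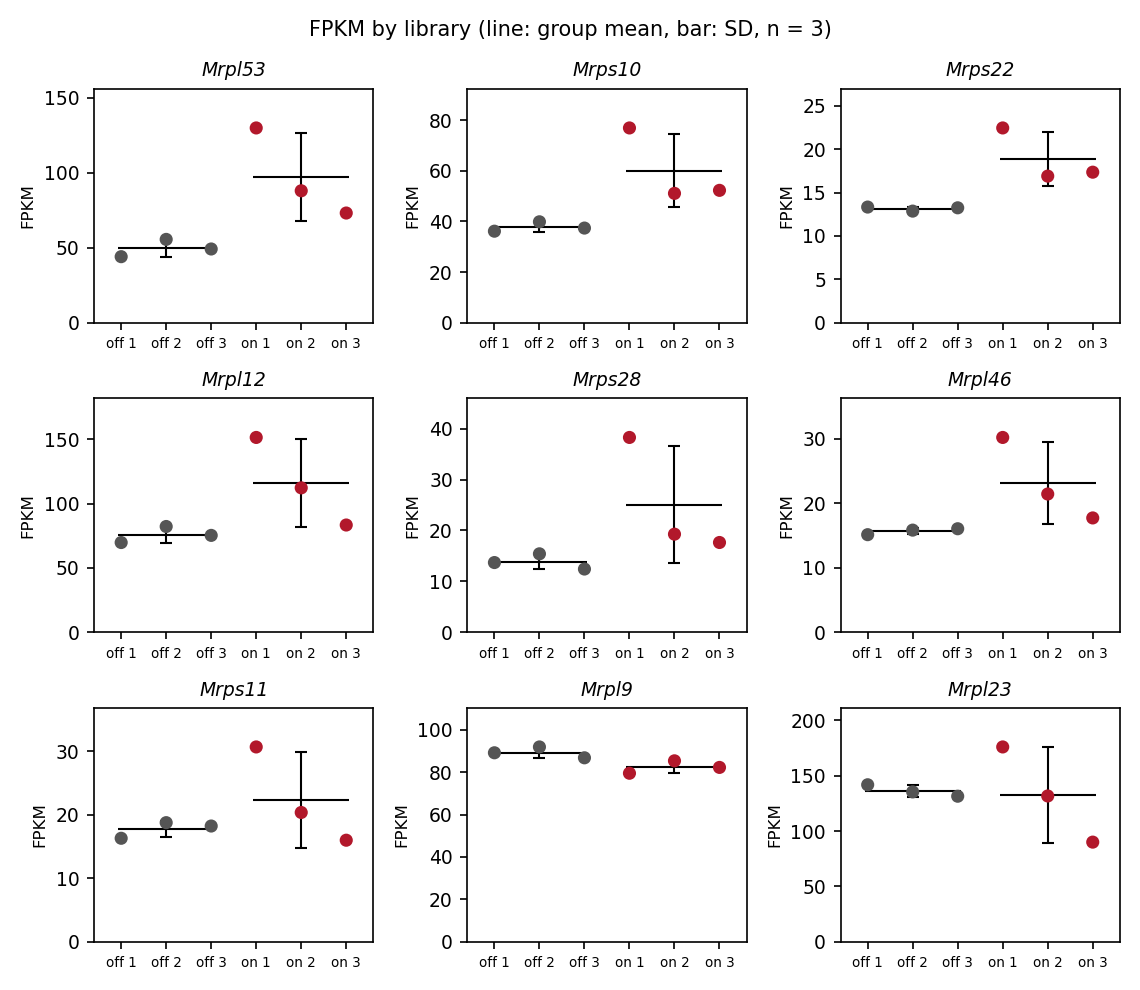
FPKM of 9 members in each of the 6 libraries, with the group mean as a line and the SD as a bar (n = 3), on linear axes from 0. Mrpl53, Mrps10 and Mrps22 are above the acoustics-off range in all 3 acoustics-on libraries, Mrpl9 is below it in all 3, and Mrpl23 is above it in on 1 and below it in on 3.

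Few members had lower values with acoustics on. Mrpl9 (chromosome 3, 94443318 to 94451130, plus strand), the counterpart of bacterial L9, was at 89.1, 91.9 and 86.8 FPKM in off 1 to off 3 and at 79.5, 85.3 and 82.2 FPKM in on 1 to on 3. It was the single member whose acoustics-on values were all below the acoustics-off values, and the log2 difference of -0.12 (SE 0.11) did not pass (adjusted p = 0.551). Its start region is shown beside those above because it too holds the NRF1 letters, in capitals, which here form overlapping matches of GCGCANGCG on both strands.
Mrpl9, chr3:94443236-94443317, plus strand, GRCm38.p6: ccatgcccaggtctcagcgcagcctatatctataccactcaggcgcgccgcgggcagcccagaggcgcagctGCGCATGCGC
A GCGCATGCG was present before the start of Mrpl22, with a log2 difference of 0.56, and of Mrpl9, with -0.12. All 7 members with GCGCATGCG in their window had a median of 0.36.

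Mrpl30, a large-subunit protein with a bacterial counterpart, was at 139.8, 132.1 and 129.0 FPKM in off 1 to off 3 and at 147.3, 116.6 and 98.2 FPKM in on 1 to on 3. Library on 1 was above and on 2 and on 3 were below the acoustics-off range, with a log2 difference of -0.16 (adjusted p = 0.576), and -0.32 (adjusted p = 0.099) without on 1. Mrpl23, which lies at the exit of the peptide tunnel, was at 141.9, 135.4 and 131.5 FPKM in off 1 to off 3 and at 176.1, 131.7 and 90.0 FPKM in on 1 to on 3. Its log2 difference was -0.09 (adjusted p = 0.832), and 0.16 without on 3. The pseudogene Mrpl23-ps1, which could share its reads, was at 8.39, 8.41 and 9.04 FPKM in off 1 to off 3 and at 10.5, 7.20 and 5.32 FPKM in on 1 to on 3.

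The remaining members with the smallest differences lay close to 0. Mrpl50 averaged 24.3 ± 1.33 and 23.4 ± 1.32 FPKM (SD, n = 3) and differed on the log2 scale by -0.05. Mrps2, of the small subunit, averaged 20.8 ± 1.03 and 19.8 ± 1.16 FPKM, with -0.07. Mrps31, a mitochondria-specific protein of the small subunit, was at 15.7, 16.2 and 16.1 FPKM in off 1 to off 3 and at 16.4, 16.9 and 17.4 FPKM in on 1 to on 3. Its groups did not overlap, yet the difference was 0.07. Mrps23 averaged 131.8 ± 5.99 and 135.4 ± 20.6 FPKM with a difference of 0.03, and Mrps9 averaged 40.5 ± 2.24 and 44.2 ± 7.70 FPKM with 0.11. The adjusted p was 0.808 for Mrpl50, 0.710 for Mrps2, 0.699 for Mrps31, 0.919 for Mrps23 and 0.666 for Mrps9.

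Levels per length spanned 61.7-fold among the tested members, from an acoustics-off mean of 4.27 FPKM for Mrpl11 to 263.1 FPKM for Mrps21, with a median of 35.5 FPKM against 11.7 FPKM for all genes tested. FPKM depends on the length the authors used, and reads per FPKM ran from 9.08 to 139.0 among members. The mean normalised count, which is not divided by length, spanned 15.5-fold. Mrps21, a small-subunit protein with a bacterial counterpart, was at 269.9, 270.0 and 249.3 FPKM in off 1 to off 3 and at 535.3, 309.4 and 214.8 FPKM in on 1 to on 3. Library on 1 was above and on 3 below the acoustics-off range, and the log2 difference was 0.32 (SE 0.31, adjusted p = 0.552). Mrpl17 averaged 156.5 ± 7.91 and 207.0 ± 59.4 FPKM (SD, n = 3) and differed on the log2 scale by 0.36, and Mrpl33 averaged 137.1 ± 7.86 and 195.3 ± 96.3 FPKM, with 0.40. Both had on 3 below the acoustics-off mean and adjusted p of 0.359 and 0.487, and without on 1 their differences were 0.15 and 0.025.

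At the low end, Mrpl47 averaged 6.75 ± 0.80 and 9.69 ± 3.78 FPKM (SD, n = 3) and differed on the log2 scale by 0.41 (adjusted p = 0.359), and by 0.14 without on 1. Mrpl42, a mitochondria-specific protein of the large subunit, was the member below the filter: it was listed at 0 FPKM in off 1 and off 3, at 0.39 in off 2, and at 1.04, 0.11 and 0.20 in on 1, on 2 and on 3. Its mean normalised count in the authors' deposited table was 5.34, too low for a comparison.

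Divided by place in the ribosome, the median log2 difference was 0.35 over the 50 tested genes of large-subunit proteins and 0.32 over the 26 of small-subunit proteins. Their medians in on 1, on 2 and on 3 were 0.73, 0.25 and 0.04 for the large subunit and 0.78, 0.20 and 0.02 for the small subunit. Without on 1 the subunits' median differences were 0.15 and 0.10. They were 0.17 and 0.19 with the trend with transcript length and GC content divided out, and 0.10 and 0.09 with the trend with reads per FPKM and GC content divided out, so the order of the subunits turned with the measure of length. The 46 genes with a bacterial counterpart had a median of 0.33 and the 30 mitochondria-specific genes one of 0.36. In limma 0 members of these groups passed; at an unadjusted p under 0.05 there were 9 large-subunit and 6 small-subunit genes, all higher (10.5% of all genes), and 1 of each passed in the authors' deposited table (5.08% of its genes). Groups did not overlap, with acoustics on higher, for 17 of the 50 large-subunit and 11 of the 26 small-subunit genes (17.1% of all genes). The order of libraries (on 1, then on 2, then on 3) was the same in both subunits.

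The 5 mitochondrial ribosomal proteins that carry other names, Dap3, Ptcd3, Aurkaip1, Chchd1 and Gadd45gip1, had a median log2 difference of 0.35, and 0 of 5 passed in limma, at an unadjusted p under 0.05 or in the authors' deposited table. Chchd1, of the small subunit, was at 74.8, 83.2 and 79.9 FPKM in off 1 to off 3 and at 154.4, 114.2 and 83.3 FPKM in on 1 to on 3, the groups just not overlapping, with a log2 difference of 0.52 (adjusted p = 0.260). Dap3, the GTP-binding protein of the small subunit, was at 56.7, 58.4 and 59.2 FPKM in off 1 to off 3 and at 105.8, 61.6 and 62.7 FPKM in on 1 to on 3, which gave a log2 difference of 0.35 (adjusted p = 0.383). Ptcd3, Aurkaip1 and Gadd45gip1 had differences of 0.11, 0.17 and 0.44, with adjusted p from 0.331 to 0.639.

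**Figure D4:**
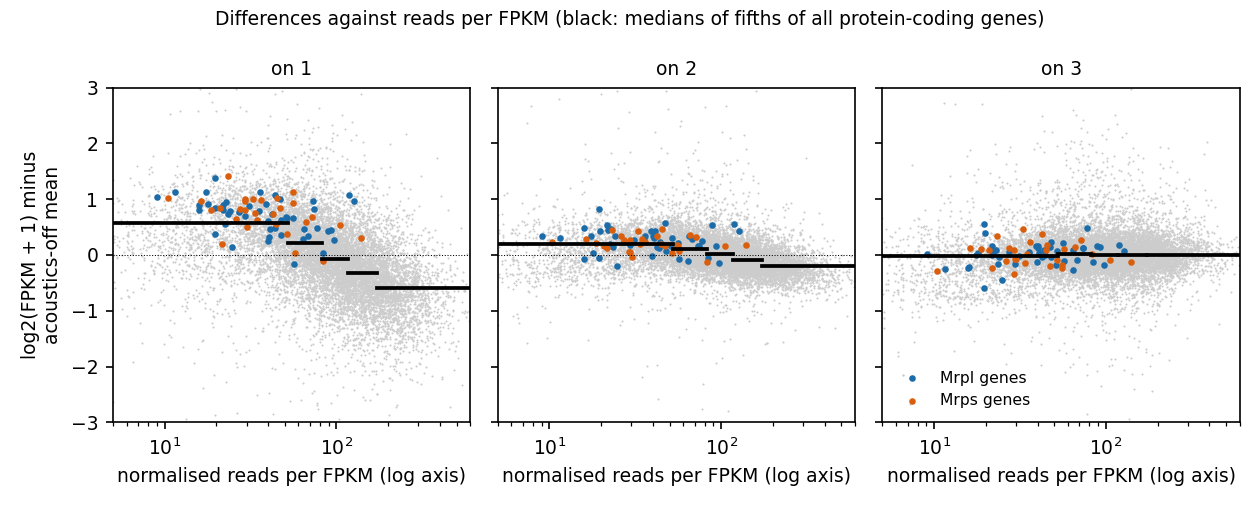
Each grey point is a tested protein-coding gene and each coloured point a mitochondrial ribosomal protein gene, plotted as reads per FPKM (log axis, larger for longer genes) against log2(FPKM + 1) minus the acoustics-off mean in each acoustics-on library, with values beyond 3 either way outside the axes. Black lines are medians of the 5 equal groups of genes, which run from 0.58 to -0.60 in on 1 and from 0.20 to -0.21 in on 2 and are flat in on 3.

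The members were set beside the length trend of each library. Over 10462 tested protein-coding genes, the rank correlation of the difference with reads per FPKM was -0.59 in on 1, -0.49 in on 2 and 0.03 in on 3. Over the 77 members it was -0.42, -0.15 and 0.15. These are correlations across genes, which share each library and are not independent replicates. In the group of genes with the fewest reads per FPKM, the 55 members had medians of 0.80, 0.26 and 0.03 in on 1, on 2 and on 3, and all 2093 genes of that group had 0.58, 0.20 and -0.02. The members' medians were nearer to those of this group than to those of all genes tested in on 1 and on 2. The groups with more reads per FPKM held 13, 6, 3 and 0 members. In those that held any, the members' medians in on 1 were 0.58, 0.35 and 0.97, against 0.21, -0.07 and -0.32 for all genes. In on 2 they were 0.18, 0.05 and 0.43, against 0.11, 0.01 and -0.08. By longest transcript, the rank correlation in on 1 was -0.27 over the members and -0.55 over tested protein-coding genes.

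When the trend with reads per FPKM and GC content was divided out of each library, an alternative chosen after seeing the data, the members' median difference was 0.09, and their medians were 0.17 in on 1, 0.07 in on 2 and 0.08 in on 3. Under this correction Mrpl53 rose by 0.59 (adjusted p = 0.017) as the 1 higher member (3.68% of all genes), while Mrpl23 fell by 0.42 (adjusted p = 0.045) and Mrpl30 fell by 0.46 (adjusted p = 0.030) as the 2 lower members (3.17% of all genes). With the longest annotated transcript as the measure of length instead, the median was 0.16 and Mrpl53 was the 1 member that rose, by 0.57 (adjusted p = 0.027; 2.88% of all genes), and 0 members fell (2.66% of all genes). Mrpl23 had a difference of 0.00 under that form, so its call rests on the measure of length. The role of the trend in the differences as deposited was not tested beyond these values.

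**Figure D5:**
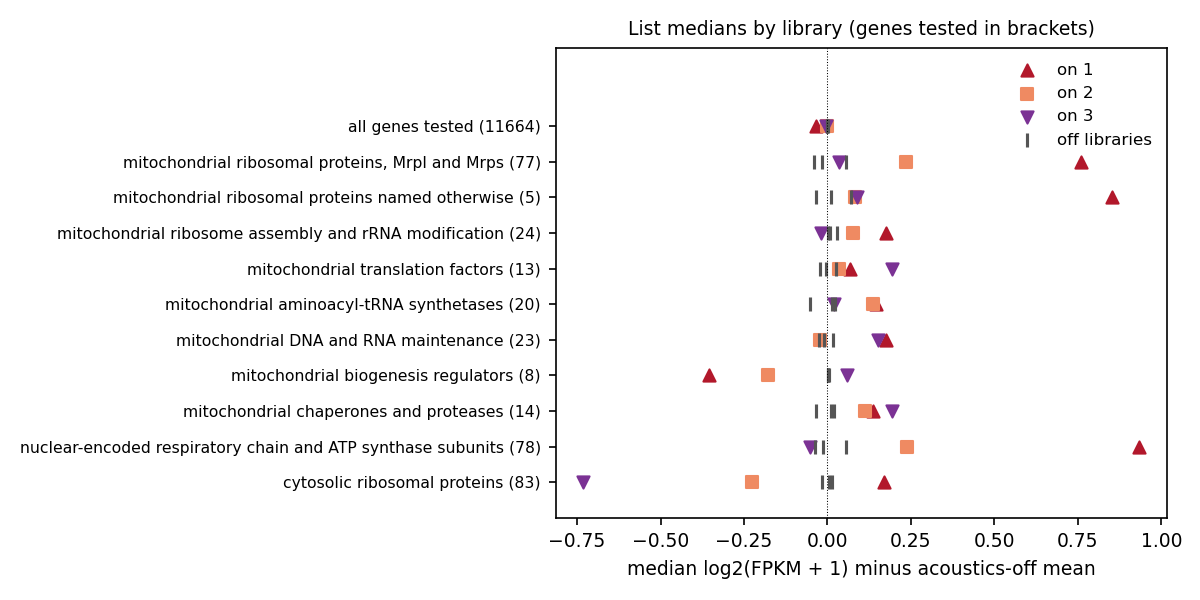
Median log2(FPKM + 1) minus the acoustics-off mean for each gene list, in the 3 acoustics-on libraries (coloured symbols) and the 3 acoustics-off libraries (ticks), with the number of genes tested in brackets. The mitochondrial ribosomal protein genes and the respiratory chain genes are far to the right in on 1, at 0.76 and 0.93, and the cytosolic ribosomal protein genes are far to the left in on 3, at -0.73.

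Genes that serve the mitochondrial ribosome in other ways had medians nearer to 0 than the members in the values as deposited. Factors of assembly and ribosomal RNA modification (24 genes tested) had a median log2 difference of 0.06, mitochondrial translation factors (13 of 15) one of 0.08, mitochondrial aminoacyl-tRNA synthetases (20) one of 0.03, and genes that maintain mitochondrial DNA and RNA (23) one of 0.10. This order did not hold throughout for the translation factors and the synthetases. Without on 1 the medians were 0.14 for the members, 0.15 for the translation factors and 0.11 for the synthetases, and with the trend with reads per FPKM and GC content divided out they were 0.09, 0.12 and 0.12. The assembly factors were at 0.01 and the genes that maintain DNA and RNA at 0.05 without on 1. With that trend divided out they were at 0.004 and 0.08, below the members in both settings. In limma 0 genes of each list passed. At an unadjusted p under 0.05 the counts of higher and lower genes were 0 and 0, 2 and 1, 2 and 0, and 1 and 1 in that order. The shares of all genes were 10.5% higher and 9.16% lower. In the authors' deposited table the lists held 0, 1, 0 and 1 higher genes at an adjusted p under 0.05 (5.08% of its genes), and 0 lower genes (2.49%). Guf1, a GTPase that acts on the mitochondrial ribosome, was at 14.2, 14.5 and 14.0 FPKM in off 1 to off 3 and at 19.4, 18.8 and 20.3 FPKM in on 1 to on 3, a tight pair of groups that did not overlap. Its log2 difference was 0.43 (SE 0.11, adjusted p = 0.110). Without on 1 it passed (adjusted p = 0.029), as the 1 higher gene of its list (4.34% of all genes). Tefm, an elongation factor of mitochondrial transcription, was at 8.25, 10.4 and 8.82 FPKM in off 1 to off 3 and at 14.9, 13.8 and 12.9 FPKM in on 1 to on 3, which gave a log2 difference of 0.55 (adjusted p = 0.0999). Mpv17l2, of assembly, and Cars2, of the synthetases, had the smallest p of their lists, with adjusted p of 0.259 and 0.216.

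Regulators of mitochondrial biogenesis (8 genes tested of 9) had a median of -0.20, and mitochondrial chaperones and proteases (14) one of 0.11, with 0 genes past the threshold in limma in either. Without on 1 these medians were -0.10 and 0.13. They were -0.04 and 0.09 with the trend with transcript length and GC content divided out. With the trend with reads per FPKM and GC content divided out they were 0.03 and 0.13. At an unadjusted p under 0.05 there were 2 higher regulators and 3 higher chaperones or proteases (10.5% of all genes). The authors' deposited table has 2 and 0 higher genes in these lists (5.08% of its genes). Myc, a transcription factor that drives ribosome production, had the smallest p among the regulators, at 1.95, 2.76 and 2.53 FPKM in off 1 to off 3 and at 8.41, 3.97 and 8.21 FPKM in on 1 to on 3. The groups did not overlap, and the log2 difference was 1.15 (SE 0.27, adjusted p = 0.089). Afg3l2, a protease that matures a protein of the large subunit, was at 32.4, 33.6 and 33.7 FPKM in off 1 to off 3 and at 43.4, 40.2 and 57.1 FPKM in on 1 to on 3, which gave a log2 difference of 0.47 (adjusted p = 0.178).

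The nuclear-encoded subunits of the respiratory chain and ATP synthase, whose partners the mitochondrial ribosome makes, were 78 genes with a median of 0.36, and medians of 0.93, 0.24 and -0.05 in on 1, on 2 and on 3. Their median difference was 0.12 without on 1, 0.12 with the trend with transcript length and GC content divided out, and 0.08 with that of reads per FPKM and GC content. In limma 0 passed, 8 were higher at an unadjusted p under 0.05 (10.5% of all genes), and the authors' deposited table has 2 higher (5.08% of its genes). Ndufa4, of that list, was at 95.7, 107.7 and 103.7 FPKM in off 1 to off 3 and at 276.1, 168.4 and 158.6 FPKM in on 1 to on 3, which gave a log2 difference of 0.92 (adjusted p = 0.099). It passed without on 1 (adjusted p = 0.011), as the 1 higher gene of its list (4.34% of all genes). Of the cytosolic ribosomal proteins, 83 of 84 were tested, their median was -0.25, with 0.17, -0.23 and -0.73 in on 1, on 2 and on 3. In limma 0 passed and 4 were lower at an unadjusted p under 0.05 (9.16% of all genes), and the authors' deposited table has 0. Their median difference was -0.47 without on 1, where Rpl30 was the 1 that passed, as lower (3.11% of all genes). It was -0.52 and -0.58 with the trend divided out by transcript length or by reads per FPKM, each with GC content. Rpl5, the one with the smallest p, averaged 2693 ± 57.1 and 1934 ± 289 FPKM (SD, n = 3), a log2 difference of -0.49 (adjusted p = 0.212). Among the 3 acoustics-on libraries, the medians of both kinds of ribosomal protein were highest in on 1 and lowest in on 3. In on 3 the median was 0.04 for the members and -0.73 for the cytosolic ribosomal protein genes.

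The members lie on 17 chromosomes, and 18 of the 78 (23.1%) have a protein-coding neighbour on the other strand that starts within 1000 bases and runs the other way, against 11.4% of 10462 tested protein-coding genes. Of the 18 neighbours, 17 were tested and 0 passed in limma or in the authors' deposited table. An unadjusted p under 0.05 in limma was found for 3, against 10.5% of all genes higher and 9.16% lower. The members of these pairs had a median log2 difference of 0.37, with 16 of 18 above 0, and the neighbours one of -0.05, with 7 above 0 and 10 below. For comparison, 70 of all 77 tested members and 5477 of all 11664 genes tested were above 0. Mrps18b, with a difference of 0.48, starts 45 bases from Ppp1r10, a phosphatase regulator that was at 29.1, 24.3 and 29.7 FPKM in off 1 to off 3 and at 12.3, 20.3 and 29.1 FPKM in on 1 to on 3. Mrpl32 starts 75 bases from Psma2, a proteasome subunit at 36.1, 39.0 and 37.9 FPKM in off 1 to off 3 and at 69.0, 49.3 and 44.6 FPKM in on 1 to on 3. Mrpl32 itself was at 14.1, 18.7 and 20.4 FPKM in off 1 to off 3. In on 1 to on 3 it was at 34.1, 18.1 and 18.0 FPKM, with on 2 and on 3 within the acoustics-off range. The log2 difference of Mrpl32 was 0.33, and 0.04 without on 1. In the values as deposited, a shared start region did not go with a shared difference in every pair. The part of the length trend in the differences of these pairs was not tested.

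Mrpl46 and Mrps11, of the large and the small subunit, start 41 bases apart by their RefSeq start sites and run in opposite directions, and were picked for this after their values were seen. Their bases between the start sites that lie in no annotated exon are shown because this stretch lies before the RefSeq starts of both genes, although another annotated Mrpl46 transcript begins inside Mrps11 and holds the stretch in an intron. None of the motifs searched was found in it, so it has no capitals, and the AAGATGGCG in the window of Mrps11 lies outside it.
Mrpl46 and Mrps11, chr7:78783090-78783118, plus strand, GRCm38.p6: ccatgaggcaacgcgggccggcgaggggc
Mrpl46 was at 15.1, 15.8 and 16.0 FPKM in off 1 to off 3 and at 30.2, 21.4 and 17.7 FPKM in on 1 to on 3, and its groups did not overlap. Mrps11 was at 16.3, 18.8 and 18.2 FPKM in off 1 to off 3 and at 30.7, 20.4 and 16.0 FPKM in on 1 to on 3, with on 3 below the acoustics-off range. Their log2 differences were 0.50 (adjusted p = 0.227) and 0.27 (adjusted p = 0.500), and without on 1 they were 0.30 and 0.03. Exons of the pair overlap on opposite strands in the annotation, as exons of 28 members do with some gene, and 8 members overlap a gene on the same strand. The strand setting of the authors' counting is not given in the sources used here, so reads in such overlaps cannot be told apart.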

How the data were processed

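RNA from 3 acoustics-off and 3 acoustics-on libraries of RAW264.7 cells was sequenced. The build was GRCm38 and the tools included DESeq2 1.38.2, Salmon 1.4.0, STAR 2.7.11 and Trim Galore 0.6.8, per the submitters' processing notes, with order and parameters not stated. The labels name both polyA RNA and a ribosomal RNA depletion kit. The authors deposited FPKM per gene and library, and a table of their comparison with mean normalised counts, log2 fold changes, a test score (the fold change over its SE, to within 8.3e-14) and p-values, raw and adjusted.

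The members and all gene lists were chosen with earlier results of these data known. log2(FPKM + 1) was tested on minus off with limma 3.58.1 (R 4.3.3; trended robust prior, Benjamini-Hochberg at 0.05), with no replicate term, for genes with at least 0.5 FPKM in at least 3 libraries. On 5 simulated data sets (200 changed genes, 11458 tested on average) it found 52.4% of log2 changes of 1 and 89% of those of 2, and 5.09% of its calls were false. The simulated noise was independent between genes, with spreads shuffled across genes, equal in both groups and without a length trend. These rates therefore need not hold for the deposited libraries. Named members were 9 chosen for their role, those with the 4 smallest p, 4 largest and 4 smallest differences of each name, and the 3 highest and 3 lowest levels; of each other list, the gene with the smallest p. Neighbours, overlapping genes, Mrpl46, Mrps11 and Dap3 were added after their values were seen. Length corrections divided out a loess trend (span 0.5) per library over protein-coding genes with a mean of at least 1 FPKM. Coordinates are from GENCODE M21 (all 78 members matched by symbol) and promoters from RefSeq. Alternatives were other pseudocounts, filters, scalings and priors, library weights, length corrections, a replicate term and each library left out.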

Additional observations from a re-analysis of the deposited data

How the results depend on the processing

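With 3 libraries a group, the p-values rest on few samples, and the read total of each library is not known. The count of members past the threshold was 0 higher and 0 lower with either other pseudocount, either other filter, both scalings, the other variance prior, and each library left out except on 1. Leaving out 1 library at a time gave 0 to 3 higher members, 0 lower members and medians of 0.14 to 0.49, with 3 higher and 0.14 without on 1. Library weights gave 15 higher members (9.41% of all genes). With the length and GC trend divided out there was 1 higher member, and without on 1 in addition 3 higher (Mrpl53, Mrps10 and Mrps22, 6.12% of all genes) and 1 lower (Mrpl30, -0.41, adjusted p = 0.024, 5.63%). With the trend with reads per FPKM and GC divided out, added after seeing the data, there were 1 higher (3.68% of all genes) and 2 lower members (3.17%). Without on 1 there were again 1 higher (6.18% of all genes) and 2 lower (5.72%), with a median of 0.060. The members' median was above 0 under every alternative run. With the replicate block, 0 members were higher and 0 lower, alone or with either correction, and the adjusted p of Mrpl53 was 0.139. Same-numbered libraries had correlations of their deviations of -0.07, -0.02 and -0.004. With 3 libraries a group, such correlations cannot settle whether the numbers pair the libraries. The values with the block are given for completeness. Among named members 34 differences changed sign, and 0 of these passed the threshold. Over the analyses with 1 library left out, the difference ranged from -0.011 (without on 1) to 0.43 for Mrpl58, from -0.32 to 0.16 (without on 3) for Mrpl23, from -0.055 (without on 1) to 0.16 for Mrps23, from -0.024 (without on 1) to 0.21 for Mrps9 and from -0.028 (without on 1) to 0.63 for Mrps21. With libraries scaled to the same median it was 0.016 for Mrpl50. With the length and GC trend divided out, with or without the block, it was 0.0013 for Mrpl23, -0.19 for Mrps23 and -0.074 for Mrps21, and without on 1 in addition it was -0.040 for Mrpl58, -0.13 for Mrps23, -0.12 for Mrps9, -0.098 for Mrps21 and -0.014 for Mrpl33. With the trend with reads per FPKM and GC divided out, with or without the block, it was -0.068 for Mrpl58, -0.29 for Mrps23, -0.055 for Mrps31, -0.024 for Mrps9 and -0.041 for Mrps21, and without on 1 in addition it was -0.098 for Mrpl58, -0.13 for Mrps23, -0.12 for Mrps9, -0.061 for Mrps21 and -0.033 for Mrpl33. The cause of these changes was not tested.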
